A study of Homo sapiens with 18 samples.

Results

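The genes described here are 10 members and targets of the Hippo-YAP pathway: the coactivators YAP1 and WWTR1, the kinase LATS2, the LIM-domain adaptor AJUBA, the angiomotins AMOT, AMOTL1 and AMOTL2, and the target genes CCN1, CCN2 and ANKRD1. They were taken by gene symbol, and all 10 were found among the 40916 symbols counted in each library. Poly(A)-selected RNA was sequenced in 18 libraries that form 6 groups of 3 biological replicates. MCF10A, a non-transformed human mammary epithelial line that here expresses H2B-GFP, HCT116, a human colorectal carcinoma line that is unlabelled, and mixed cultures set up with 50% of each line were either non-irradiated (NIR) or given 10 Gy (IR). Day 2 is the harvest time in the titles, and 72 hours after irradiation is the time in the series text. The monocultures were grown in different media (F12:DMEM with horse serum, EGF, hydrocortisone, cholera toxin and insulin for MCF10A, and McCoy's 5A with fetal bovine serum for HCT116), so line and medium cannot be told apart. The sources used here do not give the medium in which mixed cultures grew.

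In the Hippo pathway a kinase cascade ends in LATS1 and LATS2, which phosphorylate YAP1 and WWTR1 (TAZ) and keep them out of the nucleus. Unphosphorylated YAP1 and WWTR1 bind TEAD transcription factors and switch on genes such as CCN1, CCN2 and ANKRD1. Angiomotins bind YAP1 at junctions and the cytoskeleton, AJUBA binds and restrains LATS kinases, and AMOTL2 and LATS2 are themselves known YAP/TAZ targets. In epithelial cells the pathway responds to cell density, attachment and tension, and much of its control acts on the proteins, which RNA counts do not show.

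TEAD factors bind the sequence GGAATG, read as CATTCC on the other strand. Both readings were searched in the 250 bases before each annotated start in the RefSeq promoter table (GRCh38.p14), which held 12 starts of 9 of the 10 genes. CCN1 was the gene without an entry, so no CCN1 window was searched. The letters stood before 5 of these starts, those of YAP1, AMOTL2, CCN2, ANKRD1 and AJUBA, against 11.9% of all 35116 promoters in the table. The CCN2 window held 3 copies, where 0.0826% of all promoters held at least 3, and their first bases lay 169, 104 and 95 bases before the start. The ANKRD1 window held 2 copies, 220 and 128 bases before the start, and 0.940% of all promoters had at least 2. AMOTL2 and AJUBA each have 2 listed starts, of which 1 had a single copy, 69 and 59 bases before it. The windows shown, with the motif in capitals, are those that hold it for 2 target genes, 1 angiomotin and AJUBA. The YAP1 window, with 1 copy 162 bases before the start, and all windows without a copy are not shown. All 4 genes are on the minus strand, and each window is written 5′ to 3′ toward the gene, from chr6:131951373-131951622 for CCN2, chr10:90921088-90921337 for ANKRD1, chr3:134374448-134374697 for AMOTL2 and chr14:22976843-22977092 for AJUBA. A match to these letters is a description of the sequence and not evidence of binding.
CCN2: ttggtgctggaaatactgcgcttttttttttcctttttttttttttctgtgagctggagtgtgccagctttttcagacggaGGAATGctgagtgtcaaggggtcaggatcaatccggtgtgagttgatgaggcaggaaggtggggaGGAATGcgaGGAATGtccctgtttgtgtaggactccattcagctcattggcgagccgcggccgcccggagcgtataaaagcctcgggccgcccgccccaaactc
ANKRD1: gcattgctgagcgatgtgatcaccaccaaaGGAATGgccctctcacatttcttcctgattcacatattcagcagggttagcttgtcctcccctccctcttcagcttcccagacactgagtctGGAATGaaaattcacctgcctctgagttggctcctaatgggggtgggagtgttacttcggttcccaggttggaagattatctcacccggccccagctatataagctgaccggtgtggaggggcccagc
AMOTL2: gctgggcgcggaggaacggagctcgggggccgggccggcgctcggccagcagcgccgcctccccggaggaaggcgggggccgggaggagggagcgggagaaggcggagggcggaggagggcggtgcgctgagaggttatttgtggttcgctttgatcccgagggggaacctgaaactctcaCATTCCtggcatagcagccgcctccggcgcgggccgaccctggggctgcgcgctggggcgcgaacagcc
AJUBA: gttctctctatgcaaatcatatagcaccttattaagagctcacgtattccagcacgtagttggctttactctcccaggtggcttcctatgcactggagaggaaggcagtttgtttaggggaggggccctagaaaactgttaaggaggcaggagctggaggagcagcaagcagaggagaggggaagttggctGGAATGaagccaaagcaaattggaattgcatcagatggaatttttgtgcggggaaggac

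The libraries held 25737818 to 40839835 counts. Levels are given as CPM, a gene's count times 1e+06 over the library's total, and are compared between groups but not between genes, because they are not scaled to gene length. The summed level of 8 basal mammary markers was 8131 to 8681 CPM in NIR and 12728 to 13109 CPM in IR MCF10A, against 482 to 548 CPM in NIR HCT116. The summed level of 8 intestinal markers was 310.4 to 340.3 CPM in HCT116 and 7.97 to 11.2 CPM in MCF10A, with EPCAM carrying most of it and CDX1 at 0 counts in the HCT116 monocultures. The mixed libraries held little MCF10A RNA: its estimated share was 0.447 ± 0.0528% in NIR and 1.24 ± 0.0662% in IR (SD, n = 3). It rests on medians over genes at 20 CPM or more in 1 line and under 1 CPM in the other. The level in the other line was not subtracted. The SD covers the spread of libraries only, and single genes differed widely. KRT5 was at 2.72 CPM in IR mixed, 1.54 CPM in IR HCT116 and 2784 CPM in IR MCF10A. TGFB2 was at 4.19, 0.642 and 45.9 CPM in these groups. In bulk RNA, fewer cells of a type and less RNA per cell cannot be told apart.

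**Figure D1:**
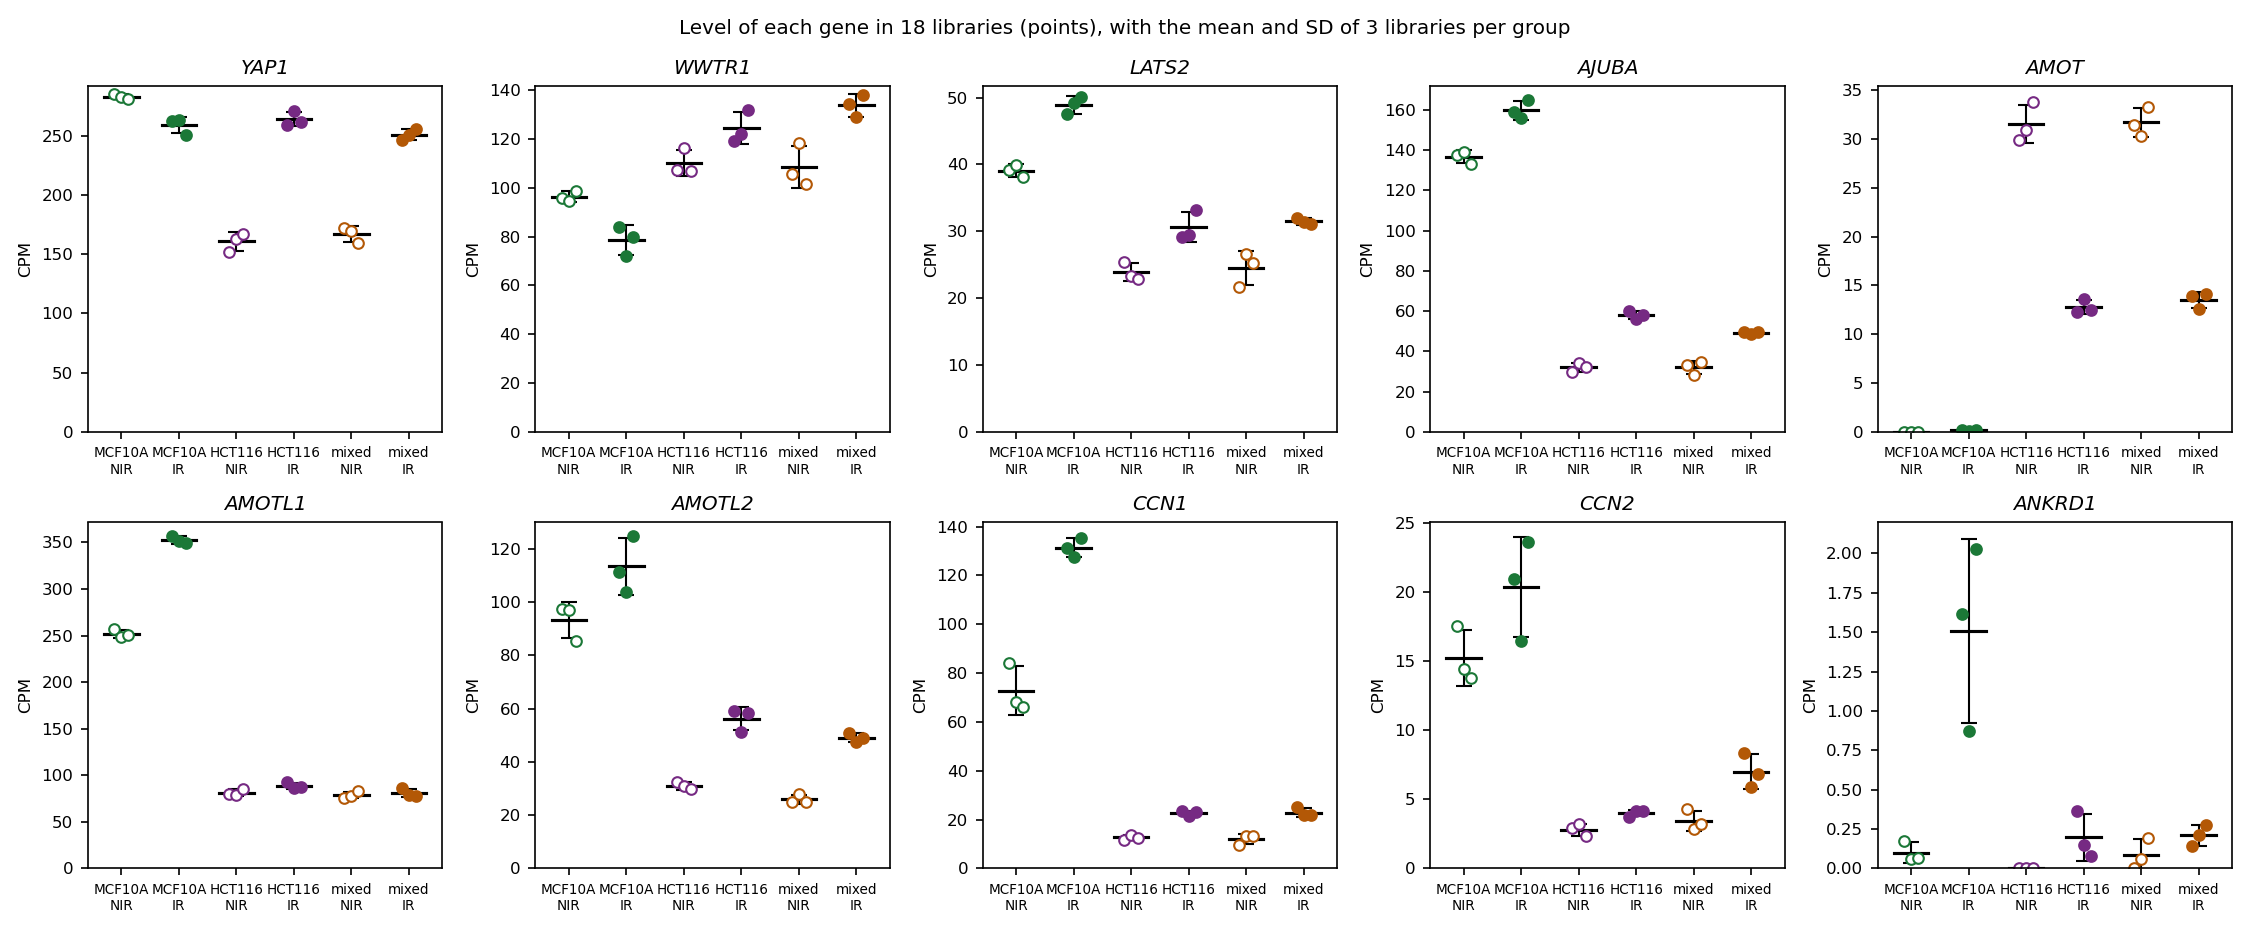
CPM (linear axes starting at 0) of the 10 genes in each library, as points, with the mean and SD of the 3 libraries of each group; open points are NIR and filled points IR. AMOTL1, CCN1, CCN2 and AJUBA are highest in MCF10A, AMOT is at 0 to 0.235 CPM in MCF10A, and in most panels the mixed cultures sit beside HCT116.

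Most of these genes differed between irradiated and control cultures in both lines, mainly upward. In MCF10A, 9 of the 10 genes had enough counts to be tested and all 9 passed (edgeR's quasi-likelihood test, Benjamini-Hochberg adjusted p under 0.05 over all genes), 7 higher and 2 lower after 10 Gy. ANKRD1, among the 7 higher, met the filter on low counts only through its irradiated libraries. Of all 15154 genes tested there, 55.4% passed, 26.2% higher and 29.2% lower. In HCT116, 8 of 9 tested genes passed, 7 higher and 1 lower, where 52.5% of all genes did, 25.3% higher and 27.2% lower. The mixed cultures also gave 8 of 9, 7 higher and 1 lower, against 49.4% of all genes, 24% higher and 25.4% lower. The median log2 fold change of the tested members was 0.30 in MCF10A, 0.52 in HCT116 and 0.56 in the mixed cultures, while that of all genes was 0.0035, 0.0072 and 0.012. With upper quartile in place of TMM scaling the calls over all genes in MCF10A turned from 3976 higher and 4419 lower to 4838 higher and 3579 lower, and 1 member, YAP1, lost its call.

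Both coactivators were lower in irradiated MCF10A and higher in irradiated HCT116 than in the controls. YAP1 (11:102110447-102233424, plus strand) was at 285, 283 and 281 CPM in the NIR MCF10A libraries and at 263, 263 and 251 CPM after 10 Gy. In HCT116 it was at 152, 163 and 167 CPM without irradiation and at 259, 270.3 and 262 CPM with it. The groups were apart in both lines: every irradiated MCF10A library was below every control, and every irradiated HCT116 library was above. The log2 fold change was -0.15 (SE 0.041, adjusted p = 0.0026) in MCF10A and 0.72 (SE 0.059, adjusted p = 5.2e-10) in HCT116. The small fall in MCF10A depended on the scaling, since with upper quartile factors it was -0.065 (adjusted p = 0.19).

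WWTR1 (3:149517235-149724788, minus strand), which encodes the YAP1 paralog TAZ, was at 95.9, 94.6 and 98.8 CPM in NIR and at 84.0, 72.1 and 79.7 CPM in IR MCF10A. Its HCT116 values were 107, 116 and 107 CPM in NIR and 119, 122 and 132 CPM in IR. Again no library of one treatment reached the other. WWTR1 fell in MCF10A by 0.32 on the log2 scale (SE 0.055, adjusted p = 1.8e-05) and was 0.18 higher in irradiated HCT116 (SE 0.062, adjusted p = 0.017). The HCT116 call was lost without NIR replicate 1 (0.15, adjusted p = 0.070) and without IR replicate 3 (0.14, adjusted p = 0.11). Both genes share exon positions with an antisense RNA gene (AP000942.2 and WWTR1-AS1), and whether the counting used strand is not given in the sources used here. AMOTL1 and CCN2 also share exon positions with a gene on the opposite strand (AP002383.2 and AL133346.1). AJUBA, AMOTL2 and AMOT share them with a gene on the same strand (AL132780.3, RPL39P5 and MIR4329).

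LATS2 and AJUBA, the upstream members, rose in both lines. LATS2 (13:20973036-21061586, minus strand), the kinase that phosphorylates YAP1, went from 39.2, 40.0 and 38.1 CPM to 47.5, 49.2 and 50.1 CPM in MCF10A. In HCT116 it went from 25.4, 23.3 and 22.9 CPM to 29.2, 29.5 and 33.2 CPM. The shifts were of similar size, 0.30 (SE 0.066, adjusted p = 2.8e-04) and 0.37 (SE 0.090, adjusted p = 0.0016) on the log2 scale, with no overlap between treated and control libraries in either line. AJUBA (14:22971177-22982551, minus strand), which binds LATS kinases at junctions under tension, was at 138, 139 and 133 CPM in NIR and 159, 156 and 165 CPM in IR MCF10A. Its HCT116 values were 29.7, 34.2 and 32.3 CPM in NIR and 60.2, 56.0 and 58.1 CPM in IR. The increase was therefore much larger in HCT116, with a log2 fold change of 0.87 (SE 0.078, adjusted p = 2.4e-09) against 0.20 (SE 0.046, adjusted p = 3.7e-04).

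The 3 angiomotins did not move in 1 direction. AMOT (X:112774877-112840831, minus strand), the founding member of the family, was counted at 29.9, 31.0 and 33.7 CPM in NIR and at 12.2, 13.6 and 12.5 CPM in IR HCT116. That is a fall by 1.29 on the log2 scale (SE 0.099, adjusted p = 1.8e-10), and AMOT was the only member called lower in HCT116. In MCF10A it had 0 counts in all 3 NIR libraries and 6, 2 and 8 counts after 10 Gy, or 0.22, 0.073 and 0.24 CPM. Taken against a floor of 3 counts over the NIR group, the IR level was at least 5.94-fold higher, or at least 2.97-fold if each fragment was counted as 2 mates. This stands on 16 counts in all, covers counting error only, and AMOT was too low for the gene-wise test there. Of the 8 intestinal markers, 5 were at 0 counts in NIR MCF10A and 3 (CDX1, CDX2 and GPA33) in IR MCF10A, where LGR5 went from 0 to 28 counts over the group and CDH17 from 0 to 3. LGR5 was low in HCT116 itself, at 0.172 CPM in NIR and 0.418 CPM in IR, against 0.303 CPM in IR MCF10A. Only 3 of the 8 markers reached a mean of 1 CPM in NIR HCT116, and 3 in IR HCT116. The 8 together were at 9.15 to 11.2 CPM in NIR and 7.97 to 10.4 CPM in IR. Their part in the AMOT counts was not tested.

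AMOTL1 (11:94706460-94876748, plus strand), a junctional angiomotin, rose in MCF10A. It went there from 257, 248.9 and 250.5 CPM in NIR to 357, 351 and 349.6 CPM, a log2 fold change of 0.46 (SE 0.040, adjusted p = 6.7e-11). In HCT116 its values were 80.2, 78.5 and 85.4 CPM in NIR and 92.4, 86.0 and 87.4 CPM in IR. Those groups did not overlap, but the difference of 0.13 (SE 0.065, adjusted p = 0.096) did not pass. It passed with all 18 libraries in the fit (0.14, adjusted p = 0.037) and without NIR replicate 3 (0.17, adjusted p = 0.039). AMOTL2 (3:134355345-134375417, minus strand), the angiomotin known as a YAP/TAZ target, rose in both lines. It went from 97.2, 97.1 and 85.4 CPM to 111, 104 and 125 CPM in MCF10A, and from 32.5, 30.8 and 29.7 CPM to 59.2, 51.1 and 58.4 CPM in HCT116. All irradiated libraries were above their controls, by a log2 fold change of 0.26 (SE 0.061, adjusted p = 6.2e-04) and 0.86 (SE 0.080, adjusted p = 3.5e-09).

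**Figure D2:**
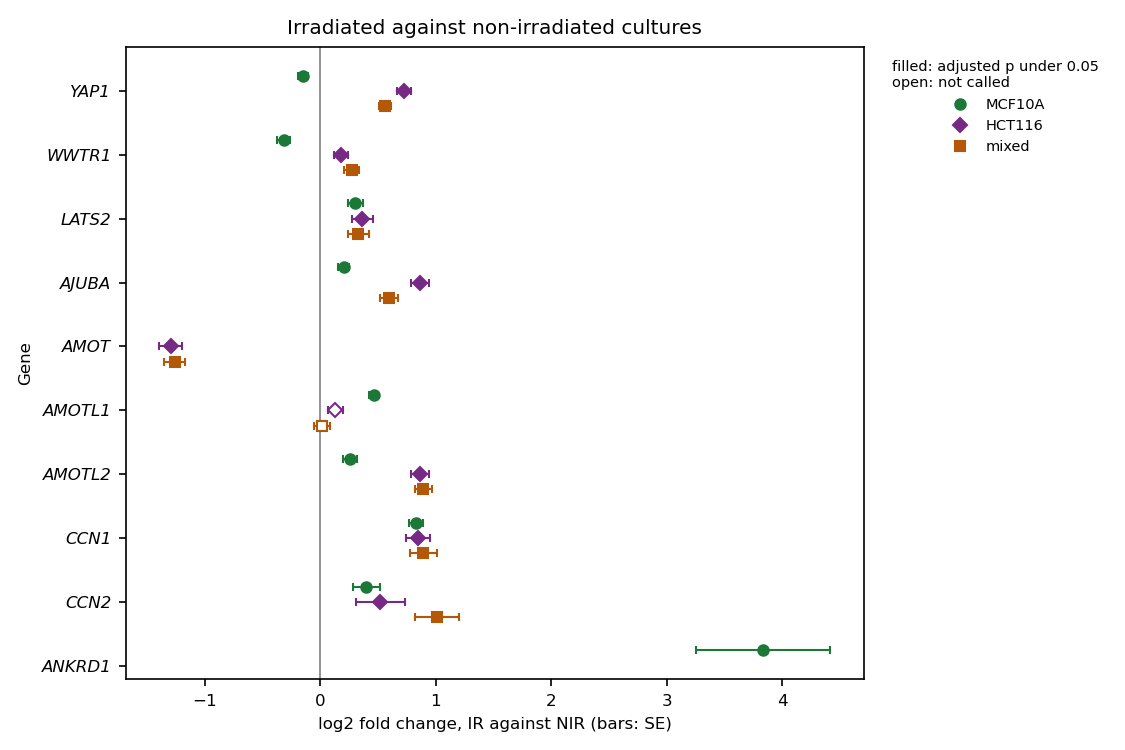
Log2 fold change of IR against NIR (x axis; bars are the SE) for each gene in MCF10A, HCT116 and mixed cultures, 3 libraries a group; filled symbols passed and open symbols did not, and AMOT in MCF10A and ANKRD1 in HCT116 and mixed cultures were too low to test. CCN1 lies at 0.83 to 0.89 in all 3 cultures, while YAP1 lies at -0.15 in MCF10A and 0.72 in HCT116.

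CCN1 and CCN2 encode secreted matricellular proteins and are standard readouts of YAP1 and TEAD activity. CCN1 (1:85580761-85583950, plus strand) was at 84.2, 68.3 and 66.1 CPM in NIR and 131, 127 and 135 CPM in IR MCF10A. In HCT116 it was at 11.8, 13.6 and 12.6 CPM in NIR and 23.3, 21.6 and 23.1 CPM in IR. Although the levels differed several-fold between the lines, the log2 fold changes were close, 0.83 (SE 0.064, adjusted p = 7.7e-12) in MCF10A and 0.85 (SE 0.10, adjusted p = 3.5e-07) in HCT116. CCN2 (6:131948176-131951372, minus strand) was at 17.5, 14.4 and 13.7 CPM in NIR and 20.9, 16.5 and 23.6 CPM in IR MCF10A. It was at 2.89, 3.17 and 2.32 CPM in NIR and 3.72, 4.16 and 4.12 CPM in IR HCT116. The MCF10A groups overlapped, and those of HCT116 did not. CCN2 was higher by 0.40 in MCF10A (SE 0.12, adjusted p = 0.0049) and by 0.52 in HCT116 (SE 0.22, adjusted p = 0.045).

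Both CCN2 calls rested on single libraries or settings. In MCF10A the call was lost without IR replicate 3 (0.27, adjusted p = 0.080). In HCT116, where the gene had 266 counts in NIR and 398 in IR, it was lost with no filter on low counts (0.52, adjusted p = 0.070), and with any library left out other than NIR replicate 2 (0.41 to 0.57, adjusted p = 0.059 to 0.15). ANKRD1 (10:90912096-90921087, minus strand), which encodes a nuclear ankyrin-repeat protein and is a direct YAP1 and TEAD target, was near the limit of detection. It had 6, 2 and 2 counts in NIR MCF10A and 44, 24 and 69 counts in IR, or 0.18, 0.056 and 0.068 CPM against 1.62, 0.88 and 2.03 CPM. All 3 irradiated libraries were above the controls, with a log2 fold change of 3.83 (SE 0.58, adjusted p = 2.3e-06). ANKRD1 met the filter on low counts only through the irradiated libraries, so this call adds nothing beyond the counts. In HCT116 it had 0 counts in NIR and 12, 6 and 2 counts in IR, at least 6.33-fold higher against the floor, or at least 3.16-fold with counts halved. It was too low for a test there.

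Basal mammary markers moved with irradiation in HCT116 too. Their summed level was 482 to 548 CPM in NIR and 975 to 1166 CPM in IR HCT116, and 3 and 6 of the 8 markers reached 1 CPM, with TP63 at 0 counts in NIR. Most of that sum was ITGB4, an integrin gene that HCT116 also expresses, at 441 to 498 CPM in NIR and 895 to 1069 CPM in IR. The other 7 markers, a split made after the values were seen, summed to 41.5 to 49.5 CPM in NIR and 80.1 to 96.7 CPM in IR HCT116, against 7465 to 8026 CPM in NIR MCF10A. Their part in the HCT116 result was not tested. Among them, KRT5, KRT6A and KRT17 went from 12, 20 and 12 counts over the NIR group to 167, 144 and 166 in IR HCT116. TP63 went from 0 to 4 counts. VGLL3, a TEAD cofactor at 86.1 CPM in IR MCF10A, had 6 counts in NIR and 0 counts in IR HCT116. FOXF2, at 5.38 CPM in IR MCF10A, had 0 counts in both HCT116 groups, and also 0 in the NIR mixed libraries.

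The responses of the 2 lines were compared with the interaction of line and treatment. Of the 10 genes, 6 differed in their response, 4 higher and 2 lower in HCT116 than in MCF10A. Over all 18179 genes tested, 37.3% passed, 15.4% higher and 21.9% lower, with a median difference of -0.10. The log2 response of YAP1 was 0.80 higher in HCT116 (SE 0.069, adjusted p = 1.5e-09), and that of its paralog WWTR1 was 0.42 higher (SE 0.083, adjusted p = 2.2e-04). AJUBA differed by 0.58 (SE 0.083, adjusted p = 3.4e-06), AMOTL2 by 0.53 (SE 0.10, adjusted p = 2.2e-04) and AMOTL1, in the other direction, by -0.41 (SE 0.071, adjusted p = 4.7e-05). AMOT was also called, but its fitted value has no fixed size because NIR MCF10A had 0 counts. It met the filter on low counts only through HCT116. For the target genes the difference did not pass: CCN1 -0.06 (SE 0.12, adjusted p = 0.75), CCN2 0.04 (SE 0.22, adjusted p = 0.92) and ANKRD1 1.69 (SE 1.33, adjusted p = 0.35), and for LATS2 it was -0.02 (SE 0.11, adjusted p = 0.95). A p that misses the threshold does not show that these 4 genes responded alike in the lines.

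Between the lines, most of the genes were lower in HCT116. In NIR cultures 8 of the 9 tested genes passed, 1 higher and 7 lower in HCT116, where 74.8% of all genes passed, 38.7% higher and 36.1% lower. In IR cultures all 10 passed, 2 higher and 8 lower, against 74.9% of all genes, 38.1% higher and 36.8% lower. The total of calls is thus close to the background, while the share of lower calls is above it. These comparisons share libraries with those of irradiation. Libraries of the 2 lines were apart for 55.3% of all genes with counts in NIR and 54.7% in IR. AMOT met the filter on low counts only through HCT116, and in IR cultures ANKRD1 only through MCF10A.

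AMOT was the member that most divided the lines, with 2963 counts in NIR HCT116 and 0 in NIR MCF10A. Its level was at least 1034-fold higher in HCT116, or at least 517-fold with counts halved, and after 10 Gy it was 72.6-fold higher by mean CPM (12.8 ± 0.725 against 0.176 ± 0.0897, SD, n = 3). The other angiomotins went the other way. AMOTL1 was lower in HCT116 by a log2 fold change of -1.83 in NIR (SE 0.056, adjusted p = 3e-15) and -2.22 in IR (SE 0.050, adjusted p = 2.3e-23), and AMOTL2 by -1.79 (SE 0.072) and -1.24 (SE 0.068). CCN1 was 5.75-fold lower in NIR and 5.80-fold lower in IR HCT116 by mean CPM, and CCN2 5.45-fold and 5.08-fold. AJUBA stood at -2.29 (SE 0.066) and -1.69 (SE 0.054), and LATS2 at -0.91 (SE 0.080) and -0.91 (SE 0.075). ANKRD1 was lower in IR HCT116 by -3.12 (SE 0.56, adjusted p = 1.7e-05).

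For the coactivators the difference between the lines depended on the treatment and on the scaling. YAP1 was lower in NIR HCT116, 161 ± 7.98 against 283 ± 2.23 CPM (SD, n = 3), with a log2 fold change of -1.01 (SE 0.054, adjusted p = 7.7e-12). After 10 Gy it was at 264 ± 5.83 CPM in HCT116 and 259 ± 7.00 CPM in MCF10A, with overlapping libraries. TMM scaling placed it at -0.20 (SE 0.046, adjusted p = 3.6e-04), against -0.13 with all 18 libraries in the fit and -0.02 (adjusted p = 0.71) with upper quartile factors. WWTR1 was at 110.1 ± 5.34 CPM in NIR HCT116 and 96.4 ± 2.17 CPM in NIR MCF10A, without overlap. TMM scaling gave no difference past the threshold (-0.0065, SE 0.056, adjusted p = 0.92), and upper quartile scaling gave 0.20, which passed (adjusted p = 0.0048). In IR cultures WWTR1 was higher in HCT116 by 0.43 (SE 0.059, adjusted p = 3.0e-07). Upper quartile scaling moved the median of all genes from 0.049 to 0.25 in NIR and from 0.037 to 0.22 in IR, and the calls from 6415 higher and 5974 lower to 7807 and 4704 in NIR, and from 6446 and 6230 to 7763 and 5132 in IR.

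**Figure D3:**
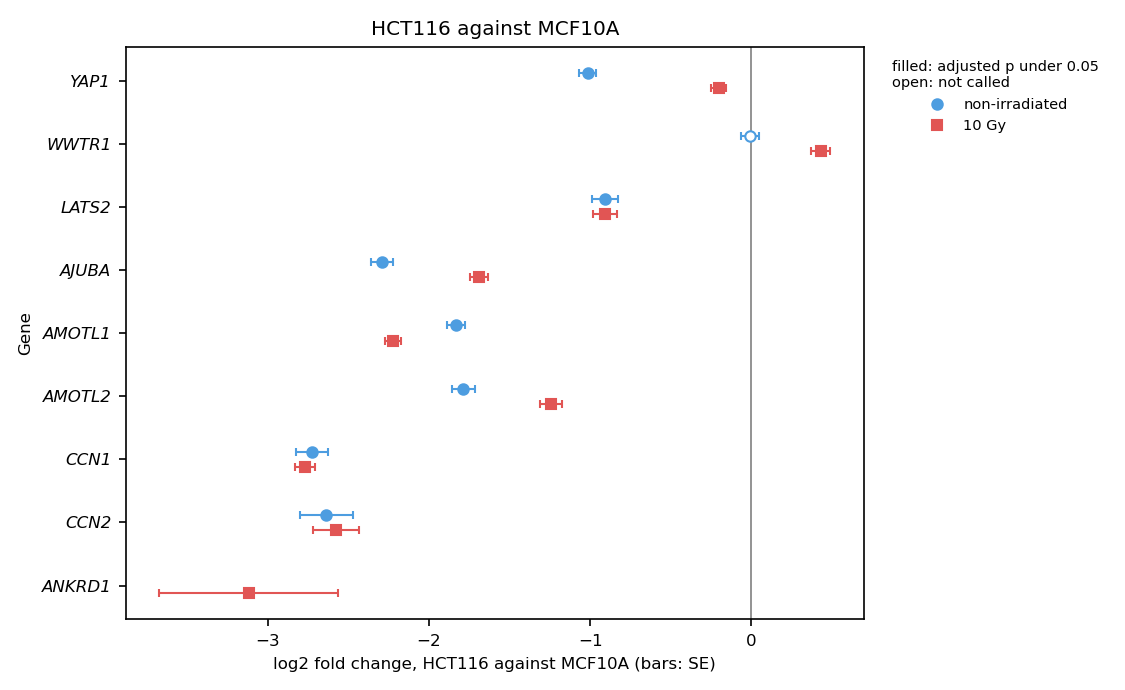
Log2 fold change of HCT116 against MCF10A (x axis; bars are the SE) in NIR and 10 Gy cultures, 3 libraries a group; AMOT, at least 1034-fold higher in NIR HCT116, is not drawn, and ANKRD1 was not tested in NIR cultures. CCN1 and CCN2 lie near -2.7 in both treatments, whereas YAP1 moves from -1.01 to -0.20.

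Across all 6 groups, the order of mean levels put IR MCF10A first and NIR MCF10A second for LATS2, AJUBA, AMOTL1, AMOTL2, CCN1 and CCN2. Neighbouring groups in that order did not overlap at these 2 places for any of them other than CCN2. Between the 2 MCF10A groups, 39.6% of all genes with counts were apart. For YAP1 the order was NIR MCF10A, IR HCT116, IR MCF10A and IR mixed, then NIR mixed and NIR HCT116. Libraries of IR HCT116 and IR MCF10A overlapped, as did those of IR MCF10A and IR mixed, and those of NIR mixed and NIR HCT116, and the other neighbours in the order were apart. WWTR1 was the only member with both MCF10A groups at the bottom other than AMOT. NIR HCT116 was the lowest group for YAP1, LATS2, AJUBA, CCN2 and ANKRD1, but its libraries overlapped those of NIR mixed cultures in each case.

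In the mixed cultures the genes lay near their levels in HCT116. Without irradiation 0 of 9 tested genes differed between mixed and HCT116 cultures with edgeR and 0 with DESeq2, and 1, AMOTL2, had an unadjusted p under 0.05 (-0.24, SE 0.086, adjusted p = 0.18). Of all genes 2.04% passed, 0.887% higher and 1.15% lower, so a count of 0 among 9 is near the background. With all 18 libraries in the fit the calls over all genes turned from 146 higher and 189 lower to 490 higher and 278 lower. After 10 Gy, 2 of 9 passed, CCN2 higher and AJUBA lower in the mixed cultures, where 8.56% of all genes passed, 5.08% higher and 3.48% lower. There the fit with all 18 libraries gave 1077 higher and 261 lower calls, against 871 and 596. Libraries of IR mixed and IR HCT116 cultures were apart for 17.8% of all genes with counts. The difference in the response to irradiation passed for 0 of 9 genes with either tool, with 1 at an unadjusted p under 0.05 (AJUBA), and for 0.83% of all genes, 0.681% higher and 0.149% lower.

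CCN2 was at 8.30, 5.85 and 6.85 CPM in the IR mixed libraries, all above the 3.72, 4.16 and 4.12 CPM of IR HCT116. The log2 fold change was 0.80 (SE 0.17, adjusted p = 0.0021). By the estimated share, MCF10A RNA at its monoculture level would make 0.252 CPM of the IR mixed level, in place of some HCT116 RNA. The difference was 3.00 CPM. Whether MCF10A cells in mixed cultures keep their monoculture level of CCN2 is not known. The part of MCF10A RNA in the difference was not tested. In NIR cultures CCN2 was at 4.26, 2.83 and 3.20 CPM in mixed and 2.89, 3.17 and 2.32 CPM in HCT116 libraries, which overlapped (0.30, SE 0.23, adjusted p = 0.60). The response of CCN2 in the mixed cultures, 1.01 (SE 0.19, adjusted p = 1.4e-04), was 0.50 larger than in HCT116, a difference that did not pass (SE 0.28, adjusted p = 0.48).

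AJUBA was at 49.7, 48.8 and 49.4 CPM in the IR mixed libraries, below the 60.2, 56.0 and 58.1 CPM of IR HCT116 (-0.25, SE 0.065, adjusted p = 0.014). The call was lost without HCT116 replicate 1 (-0.22, adjusted p = 0.056), mixed replicate 2 (-0.24, adjusted p = 0.072) or mixed replicate 3 (-0.24, adjusted p = 0.071). By the estimated share, MCF10A RNA would make 1.98 CPM of the IR mixed level, and the measured difference was -8.79 CPM. The part of MCF10A RNA in it was not tested. AMOTL2 was also lower in every IR mixed library, 50.8, 47.5 and 48.9 CPM against 59.2, 51.1 and 58.4 CPM, and did not pass (-0.20, SE 0.070, adjusted p = 0.067). It passed without HCT116 replicate 2 (-0.27, adjusted p = 0.023). AMOT was at 31.5, 30.3 and 33.3 CPM in NIR and 13.9, 12.5 and 14.1 CPM in IR mixed cultures, and fell by 1.26 (SE 0.091, adjusted p = 2.6e-10). YAP1 rose there by 0.56 (SE 0.054, adjusted p = 2.2e-08), AMOTL2 by 0.89 (SE 0.077, adjusted p = 4.3e-09) and CCN1 by 0.89 (SE 0.12, adjusted p = 2.2e-06). In the IR mixed libraries the basal mammary markers summed to 1150 to 1367 CPM, against 975 to 1166 CPM in IR HCT116, and all 8 reached 1 CPM. ITGB4 alone was at 957 to 1143 CPM in IR mixed libraries, and the other 7 markers summed to 187 to 225 CPM there, against 80.1 to 96.7 CPM in IR HCT116. In NIR cultures these 7 summed to 65.6 to 78.6 CPM in mixed and 41.5 to 49.5 CPM in HCT116 libraries. Their part in the 2 differences was not tested.

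**Figure D4:**
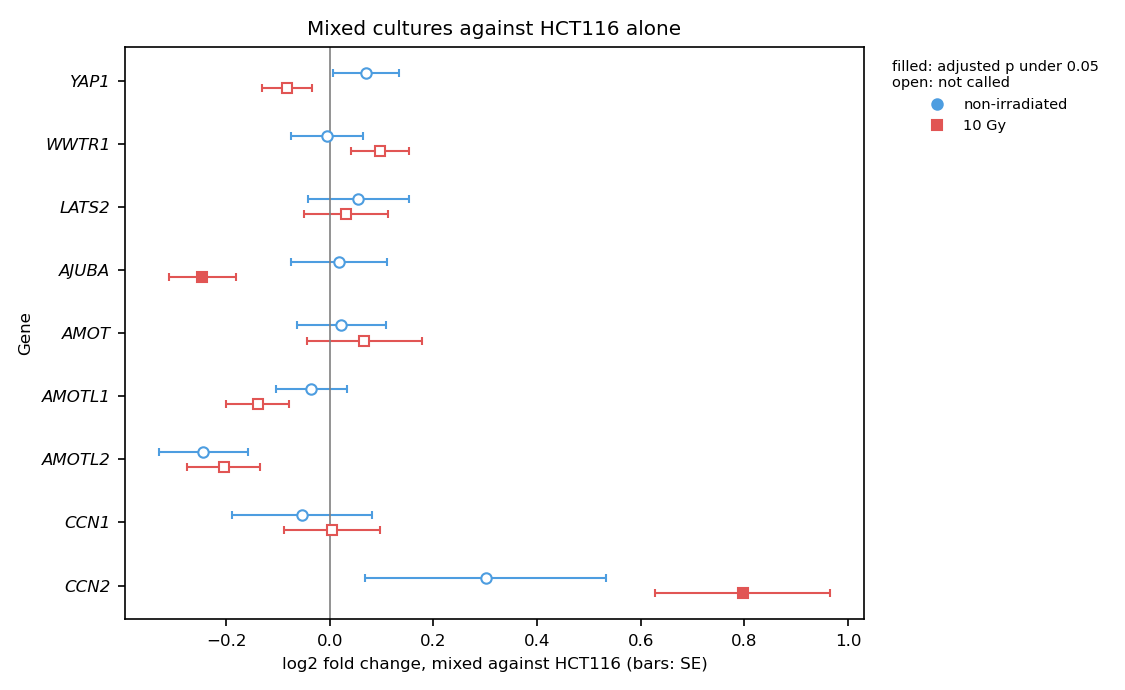
Log2 fold change of mixed against HCT116 cultures (x axis; bars are the SE), without irradiation and after 10 Gy, 3 libraries a group; filled symbols passed, and ANKRD1 was too low to test. CCN2 at 0.80 and AJUBA at -0.25, both after 10 Gy, are the 2 filled symbols.

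Other genes of the pathway were taken from 3 lists. Of 16 genes of the kinase module, its adaptors and scaffolds, 8 were called higher and 3 lower after 10 Gy in MCF10A (median log2 fold change 0.12), and 10 higher and 3 lower in HCT116 (median 0.19). Of all genes, 26.2% were called higher and 29.2% lower in MCF10A (median 0.0035), and 25.3% and 27.2% in HCT116 (median 0.0072). FRMD6, a FERM-domain scaffold upstream of the kinases, rose by 0.62 in MCF10A (SE 0.043) and fell by 0.70 in HCT116 (SE 0.091), and the difference of -1.41 passed (SE 0.078, adjusted p = 5.6e-13). In MCF10A the scaffold WWC2 fell by 0.40, the AJUBA relative LIMD1 fell by 0.36 and the kinase MAP4K4 rose by 0.37. In HCT116 the kinase adaptor SAV1 rose by 0.77, the scaffold WWC1 rose by 0.75 and STK3 (MST2), at the top of the cascade, fell by 0.51.

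Of 7 TEAD and VGLL genes, 6 were tested in MCF10A, with 2 higher and 2 lower, and 5 in HCT116, also with 2 and 2, where 55.4% and 52.5% of all genes passed. TEAD1 went from 240.3 ± 16.6 to 151 ± 9.00 CPM in HCT116 (SD, n = 3), a log2 fold change of -0.67 (SE 0.065, adjusted p = 8.2e-09), and from 228 ± 11.1 to 236 ± 6.88 CPM in MCF10A (0.02, SE 0.043, adjusted p = 0.65). The difference between the lines was -0.77 (SE 0.080, adjusted p = 2.7e-08). TEAD4 fell in both, by 1.08 in MCF10A (SE 0.11) and by 0.54 in HCT116 (SE 0.12). VGLL4, a cofactor that competes with YAP1 for TEAD, rose by 0.65 in HCT116 (SE 0.080, adjusted p = 3.6e-07). VGLL3 was at least 2850-fold higher in IR MCF10A than in IR HCT116, or at least 1425-fold with counts halved.

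Of 17 further YAP/TAZ target genes from a published signature, 11 were called higher and 5 lower in MCF10A (median log2 fold change 0.36). In HCT116 15 were tested, 8 were called higher and 0 lower (median 0.44), with DESeq2 also calling 8, and in the mixed cultures 16 were tested, 12 higher and 0 lower (median 0.58). The shares of all genes called higher and lower were 26.2% and 29.2% in MCF10A, 25.3% and 27.2% in HCT116, and 24% and 25.4% in the mixed cultures, with medians of 0.0035, 0.0072 and 0.012. F3, which encodes tissue factor, rose in both lines, by 0.82 in MCF10A (SE 0.040, adjusted p = 5.4e-16) and 1.65 in HCT116 (SE 0.090, adjusted p = 4.6e-13). DOCK5 and PTPN14, a guanine nucleotide exchange factor and a phosphatase that binds YAP1, rose by 0.98 and 0.88 in HCT116. IGFBP3, which encodes a secreted IGF-binding protein, rose in MCF10A by 2.21 (SE 0.20) and was 0.33 higher in HCT116 without passing (SE 0.17, adjusted p = 0.11). AXL, a receptor tyrosine kinase gene, fell in MCF10A (-0.61, SE 0.053) and rose in HCT116 (0.52, SE 0.077). Its response differed by 1.06 between the lines (SE 0.10, adjusted p = 1.1e-08). Of the 17 genes, 13 were lower and 3 higher in NIR HCT116 than in NIR MCF10A (median -1.99), and 15 lower and 1 higher in IR cultures (median -2.08). Of all genes, 36.1% were lower and 38.7% higher in NIR (median 0.049), and 36.8% and 38.1% in IR (median 0.037).

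**Figure D5:**
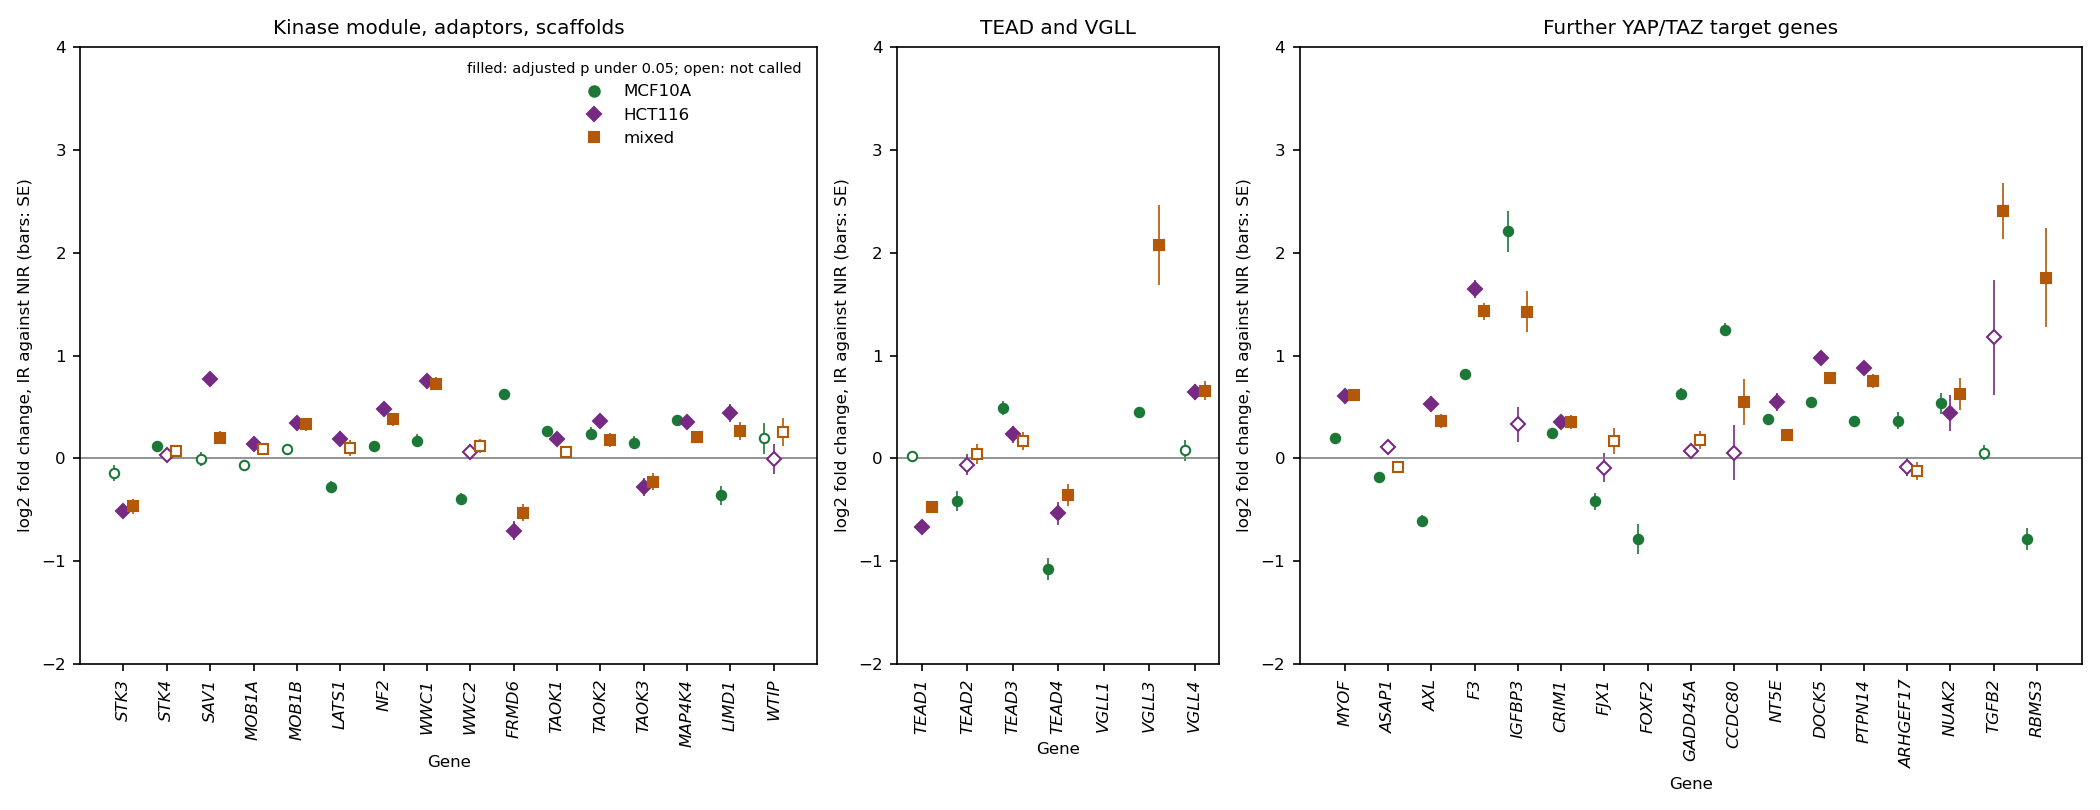
Log2 fold change of IR against NIR (y axis; bars are the SE) for the 3 lists of pathway genes in MCF10A, HCT116 and mixed cultures; filled symbols passed, open symbols did not, and a missing symbol means too few counts. FRMD6 and TEAD1 stand out by their opposite or unequal responses in the lines, and F3 and DOCK5 are above 0 in all 3 cultures.

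Between NIR mixed and HCT116 cultures 1 of 16 kinase module, 0 of 5 TEAD and VGLL and 0 of 15 further target genes passed. Of all genes 2.04% passed there. After 10 Gy these were 2 of 16, 2 of 6 and 4 of 16, against 8.56% of all genes, and some are not named here. In NIR cultures the kinase gene MAP4K4 was 0.28 higher in the mixed cultures (SE 0.061, adjusted p = 0.020). That was a difference of 36.6 CPM, and MCF10A RNA at its monoculture level would make 2.98 CPM of the mixed level. Such an estimated part takes the place of HCT116 RNA, so it is not a part of the difference. After 10 Gy, TEAD1 was 0.26 higher (SE 0.055, adjusted p = 0.0020), FRMD6 0.37 higher, and IGFBP3 0.85 higher on the log2 scale (SE 0.17, adjusted p = 0.0011), and SAV1 (-0.39) and F3 (-0.36) were lower. For TEAD1 the difference was 31.3 CPM and the estimated MCF10A part of the mixed level 2.92 CPM. For IGFBP3 these were 8.09 and 0.106 CPM. For FRMD6 they were 5.73 and 2.84 CPM, nearer in size than for MAP4K4, TEAD1 or IGFBP3. SAV1 and F3 differed by -31.4 and -41.6 CPM, where the estimated MCF10A parts were 0.584 and 10.4 CPM. What MCF10A RNA contributed to these differences was not tested.

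The genes most like each member were ranked by Pearson's r of log2(CPM + 1) over the 18 libraries, among 11302 genes with a mean of at least 5 CPM. These values describe 6 groups in 2 lines, share libraries and carry no test. AMOT was followed most closely by MYT1, RIMKLA and HOXA13 (r = 0.998 to 0.997), and VNN1 and PNLIPRP3 were among the 3 genes most like AMOTL1 (both 0.997). AJUBA was followed by XDH, PTPN14 and FBLIM1 (0.996 to 0.994), and AMOTL2 by GJB5, TRIM22 and CASP4 (0.993 to 0.990). CCN1 was most like NIPAL3, WDR26 and AFF4 (0.995 to 0.993), and CCN2 like KRT17, COL4A6 and COL17A1 (0.981 to 0.978), of which KRT17 and COL17A1 are among the 8 basal markers. PALM2AKAP2 and WASHC2A were among the 3 genes most like LATS2 (0.985 and 0.983). YAP1, with SECTM1, EID1 and NTPCR (0.978 to 0.976), and WWTR1, with IKZF5, OLA1 and LIAS (0.978 to 0.960), had no gene in common, and the r between YAP1 and WWTR1 themselves was -0.13. ANKRD1, at its low counts, reached 0.935 to 0.918 with SQSTM1, RASSF6 and PEDS1.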

How the data were processed

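Stranded poly(A) RNA libraries (paired-end, 150-bp reads) from 18 cultures were analysed, 3 in each of 6 groups. The authors deposited 1 table of raw counts per gene symbol for each library, without normalization. Per the submitters' processing notes, fastp, STAR and featureCounts were used with GRCh38. Their versions, the annotation and the strand setting are not given in the sources used here. Of the counts from 1 to 10, 68.3% were even, so fits and bounds with counts halved were added. Totals were 25737818 to 40839835 counts per library.

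Each comparison was fitted on the libraries of the compared groups with edgeR 4.0.16 in R 4.3.3 (TMM, filterByExpr, quasi-likelihood test, 2-sided, Benjamini-Hochberg over all genes tested, called under 0.05). SE is the absolute log2 fold change over the square root of F. The difference between responses is the interaction of 4 groups. Alternatives were upper quartile and RLE factors, DESeq2 1.42.0, no filter, a filter of 1 CPM in 3 libraries, all 18 libraries in 1 fit, halved counts, a replicate block and each library left out. The fits were tested on simulated counts. A group at 0 was given a floor of 3 counts over its 3 libraries, for counting error only. For the MCF10A share of RNA, the median ratio of a mixed library to the MCF10A monoculture was taken over genes at 20 CPM or more in MCF10A and under 1 CPM in every HCT116 library, and divided by its sum with the same ratio for HCT116.

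Same-numbered replicates were not taken as pairs: over 15 pairs of groups the mean correlation of their deviations was -0.10 to 0.14, and in 0 pairs was every correlation over 0.1. The highest means were those of HCT116 with mixed cultures, 0.143 in NIR and 0.144 in IR. There the replicate block raised the calls over all genes from 335 to 716 and from 1467 to 2220. Shared batches were not tested. No replicate was a copy of another (chi-square per gene at least 2.65 with counts halved). The members, the 3 pathway lists, the 8 markers of each line and the tests were chosen with earlier results of these data known. From each list, at most 4 genes were named per comparison, those with the largest change among the called at 5 CPM or more in the higher group. Values of such genes in other comparisons were given beside them. Some genes that the rules named are not reported here. Promoters and positions came from RefSeq tables of GRCh38.p14 and exon overlaps from GENCODE v29.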

Additional observations from a re-analysis of the deposited data

Results flagged for a closer look

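The difference between the 2 lines' responses to 10 Gy passed for 6 of the 10 genes (edgeR's quasi-likelihood test of the interaction, HCT116 minus MCF10A on the log2 scale). It also passed for 37.3% of all 18179 genes tested, 2801 higher and 3980 lower, or 3565 and 3318 with all 18 libraries in the fit. YAP1, the coactivator, differed by 0.80 (adjusted p = 1.5e-09), falling in MCF10A and rising in HCT116, and WWTR1, its paralog, by 0.42 (adjusted p = 2.2e-04) with the same pair of directions. AMOTL2 (0.53, adjusted p = 2.2e-04) and AJUBA (0.58, adjusted p = 3.4e-06) rose in both lines and more in HCT116. AMOTL1 differed by -0.41 (adjusted p = 4.7e-05), with a rise in MCF10A and no call in HCT116. AMOT was fitted at -6.98 (adjusted p = 1.2e-05), a value that is no bound, since it had 0 counts in NIR and 16 counts in IR MCF10A beside a fall from 2963 to 1280 counts in HCT116. It met the filter on low counts only through HCT116.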

How the results depend on the processing

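The number of members called stayed within 1.5 times its value in each comparison under the scalings, filters, DESeq2, halved counts, the fit with all 18 libraries and the replicate block. In IR mixed against HCT116 cultures it was 1 to 3 with a library left out. The MCF10A share of RNA was 0.345% in NIR and 1.07% in IR mixed libraries with a marker minimum of 50 CPM. Sign changes came from differences that had not passed, and their cause was not tested. They were WWTR1 between NIR lines (0.20 with upper quartile factors, which passed with adjusted p = 0.0048, 0.0014 with RLE, 0.0015 with DESeq2, 0.030 with a 1 CPM filter, 0.016 with halved counts, -0.042 to 0.020 with a library left out) and AMOTL1 in irradiated against NIR mixed cultures (-0.0014 with no filter, -0.036 to 0.044). In the lines' difference of responses they were LATS2 (0.0090 with RLE, 0.0079 with DESeq2, 0.085 with no filter, 0.082 with all 18 libraries, -0.069 to 0.115 with a library left out), CCN1 (0.042 with no filter, 0.039 with all 18, -0.174 to 0.081) and CCN2 (-0.066 to 0.272). Between mixed and HCT116 NIR cultures they were WWTR1 (0.0083 with all 18, -0.073 to 0.038 with a library left out), AJUBA (-0.00058 with upper quartile factors, -0.044 to 0.098), LATS2 (-0.010 to 0.137), AMOT (-0.022 to 0.084), AMOTL1 (-0.074 to 0.012) and CCN1 (-0.136 to 0.084). CCN1 gave -0.067 to 0.045 in IR cultures, and the difference of responses between mixed and HCT116 gave LATS2 -0.134 to 0.022, AMOT -0.040 to 0.078, AMOTL2 -0.043 to 0.074 and CCN1 -0.108 to 0.119. The replicate block ended the call of CCN2 in irradiated HCT116 (0.53, adjusted p = 0.058), gave one for AMOTL2 in IR mixed against HCT116 cultures (-0.20, adjusted p = 0.018), and changed no other call of a member. With all 18 libraries the lines' difference of responses over all genes had 3565 higher and 3318 lower calls, against 2801 and 3980. The calls over all genes between mixed and HCT116 cultures moved by over 1.5 times. In NIR they were 335, against 576 with DESeq2, 671 with no filter, 768 with all 18 libraries, 716 with the replicate block, 178 without HCT116 replicate 2 and 145 without mixed replicate 1. In IR they were 1467, against 2220 with the replicate block, 866 without mixed replicate 2 and 914 without mixed replicate 3. For the difference of responses they were 150, against 327 with DESeq2, 336 with no filter and 64 to 197 with a library left out. Depth limits AMOT in MCF10A and ANKRD1 in every group, at 0 to 137 counts over 3 libraries.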
